A study of Mus musculus with 6 samples.

Results

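Ion channels and neurotransmitter receptors set the excitability of a neuron. They are described here in CAD cells, a mouse catecholaminergic neuronal line, after an siRNA against circGigyf2 (si circGIGYF2 in the labels, written siCircGigyf2 here, 3 libraries) or a control siRNA (si NC, written siNC, 3 libraries). circGigyf2 is a circular RNA back-spliced from the Gigyf2 gene, and the series concerns circular RNAs in Alzheimer disease. All libraries were made from total RNA depleted of ribosomal RNA, and expression is given in FPKM, a read density corrected for transcript length and library size. Genes were taken by symbol: potassium (Kcn), calcium (Cacna, Cacnb, Cacng), sodium (Scn), HCN and TRP channels (Trpc, Trpm, Trpv), P2X receptors, GABA-A receptors, ionotropic and metabotropic glutamate receptors and nicotinic receptors. Of 235 rows of the table with such a symbol, 59 were listed at 0 in all 6 libraries, 105 had a mean above 0 and below 1 FPKM, and 71 had a mean of at least 1 FPKM and form the set. They are 71 of the 11420 genes that reach this mean in the table. The choice used the mean over all 6 libraries and not the difference between the groups. Genes just inside it were Kcnq5, Kcnrg and Kcnip4, with means of 1.13, 1.18 and 1.19 FPKM, and genes just outside were Kcnj4, Trpc6 and Kcnh6, with 0.999, 0.989 and 0.955 FPKM. Kcnq5 was the 1 member whose siNC mean lay below 1 FPKM.

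Voltage-gated sodium, calcium and potassium channels are built on a large pore-forming subunit that senses the membrane potential, joined by auxiliary subunits that set its gating and its transport to the surface. HCN channels open on hyperpolarisation and pace firing, and inward rectifier and tandem-pore potassium channels hold the resting potential. Nicotinic receptors of sympathetic neurons and chromaffin cells receive the acetylcholine of preganglionic fibres, with the Chrna3 subunit at their core, while AMPA, kainate and NMDA receptors answer glutamate. The symbol patterns also took in 4 genes that form no pore. These are Kcnq1ot1, a noncoding antisense RNA of the Kcnq1 locus, Kcnrg, a regulator of potassium channels, Trpc4ap, a partner protein of Trpc4, and Grid2ip, a scaffold protein that binds the delta glutamate receptor.

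The labelled line was checked against its markers. Of 18 catecholaminergic markers, 13 had a mean of at least 1 FPKM and 2 were listed at 0. Of these 13, 4 were higher and 5 lower in siCircGigyf2 libraries, where 19.5% of all genes tested were higher and 18.7% lower. Th, tyrosine hydroxylase, averaged 3.28 ± 0.474 FPKM in siCircGigyf2 and 4.24 ± 0.662 FPKM in siNC libraries (SD, n = 3 each, here and below). The groups overlapped for Th, and it was not called (log2 difference -0.29, limma adjusted p = 0.0659). The noradrenaline transporter gene Slc6a2 was listed at 0. Markers of astrocytes reached a mean of 1 FPKM for 1 of 8 genes, those of microglia for 1 of 10, of oligodendrocytes for 1 of 10, and of fibroblasts and endothelium for 3 of 10. Gfap averaged 0.0259 ± 0.0279 FPKM in siCircGigyf2 and 0.0283 ± 0.0351 FPKM in siNC libraries and Mbp 0.0189 ± 0.0165 FPKM in siCircGigyf2 and 0.0353 ± 0.0612 FPKM in siNC libraries, and Aqp4, Ptprc and Trem2 were listed at 0. Summed over each list, astrocyte markers gave 20.6 to 21.4 FPKM in siCircGigyf2 and 16.8 to 19.2 FPKM in siNC libraries, nearly all of it Fgfr3, which was higher (limma adjusted p = 0.00659, log2 difference 0.24). Microglia markers gave 1.25 to 1.77 FPKM in siCircGigyf2 and 1.90 to 2.62 FPKM in siNC libraries. Of these markers Tmem119 averaged 0.694 ± 0.225 FPKM in siCircGigyf2 and 1.44 ± 0.199 FPKM in siNC libraries and was lower (log2 difference -0.53, adjusted p = 0.00768). Oligodendrocyte markers gave 8.01 to 9.68 FPKM in siCircGigyf2 and 8.17 to 10.4 FPKM in siNC libraries, and fibroblast and endothelial markers 10.03 to 11.1 and 9.39 to 11.03 FPKM in siCircGigyf2 and siNC libraries. Among the last, Col1a1 was higher (log2 difference 0.36, adjusted p = 0.018). Tmem119 and Col1a1 each reached a mean of 1 FPKM only through the group where they are high. The part of these markers in the differences between channel genes was not tested. In such bulk RNA, fewer cells with a transcript and less of it in each cell cannot be told apart.

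The sources give no fragment totals per library, so counting error is unknown. Relative depth, read from the steps between the lowest FPKM values with siNC replicate 1 set to 1, was 0.839, 0.914 and 0.802 in siCircGigyf2 replicates 1, 2 and 3, against 0.979 and 0.953 in siNC replicates 2 and 3. Gigyf2, the host gene, had 21.8, 21.1 and 21.3 FPKM in siCircGigyf2 and 23.2, 23.1 and 23.2 FPKM in siNC libraries. Its row shares exon sequence with circGigyf2, which was not itself analysed here, so the knockdown was not checked. Its log2 difference of -0.11 had a limma adjusted p of 0.0287. It missed the threshold when siCircGigyf2 replicate 2 or 3, or any siNC library, was omitted (adjusted p 0.0655 to 0.0845), and in a fit that blocks on replicate number (0.0598). Together the 71 genes held 0.109% to 0.114% of all FPKM in the siCircGigyf2 libraries and 0.113% to 0.116% in the siNC libraries. Their summed FPKM was 682 to 687 in siCircGigyf2 and 670 to 683 in siNC libraries. The total of all FPKM also differed, at 604881 to 624645 in siCircGigyf2 and 578627 to 601552 in siNC libraries.

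The levels spanned almost 2 orders of magnitude, with 21 genes at a mean of at least 10 FPKM and 16 below 2 FPKM. Chrna3 stood alone at the top, at 87.9 FPKM over the 6 libraries. Trpc4ap followed at 52.4 and Scn9a, a sodium channel of sensory and sympathetic neurons, at 37.9 FPKM. Hcn2 (31.5), the ERG potassium channel gene Kcnh2 (28.6), the calcium channel beta subunit gene Cacnb3 (26.7), the TRP channel kinase gene Trpm7 (25.4) and the AMPA receptor auxiliary gene Cacng7 (24.1) came next. Cacng3, of the same auxiliary family, stood at 20.9 and the T-type calcium channel gene Cacna1h at 20.0 FPKM. Neighbours in this order were close: in siNC libraries the values of Cacnb3 ran from 25.7 to 27.3 FPKM, across those of Trpm7 and Cacng7. Between the groups the order changed: in siCircGigyf2 libraries Hcn2, at 34.0 FPKM, stood above Kcnh2, at 25.6 FPKM, and in siNC libraries Kcnh2, at 31.6 FPKM, stood above Hcn2, at 29.0 FPKM.

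**Figure D1:**
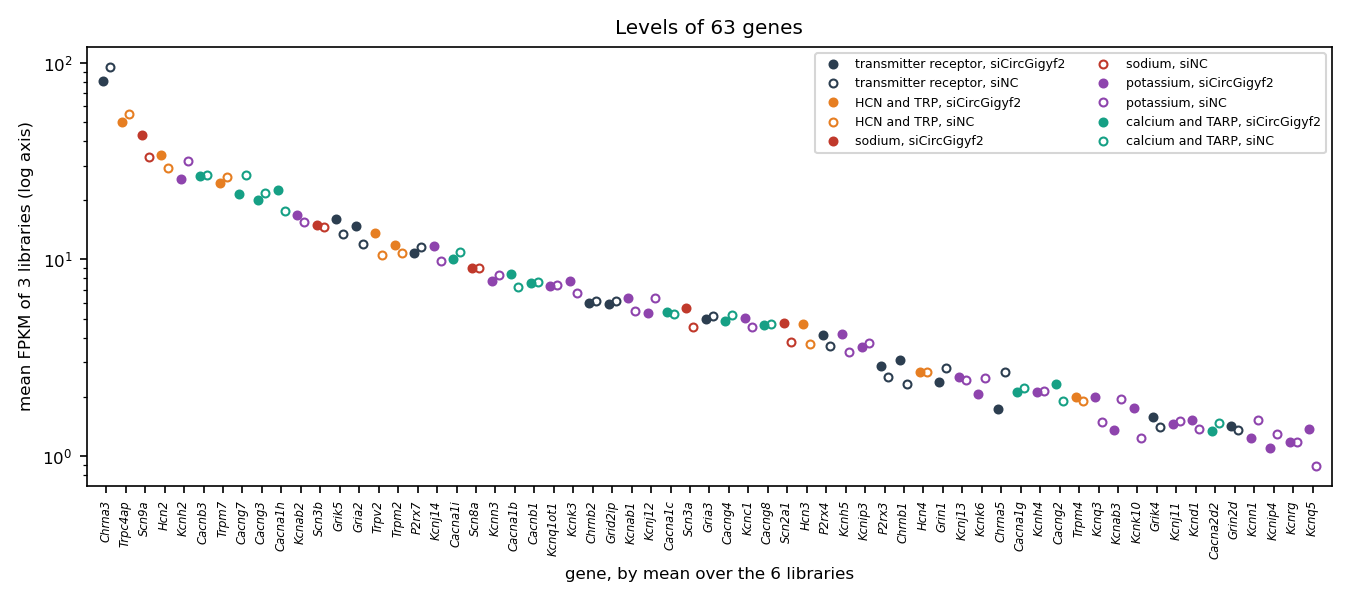
Mean FPKM of 63 of the 71 genes (log axis), ordered by the mean over all 6 libraries, with filled circles for siCircGigyf2 and open circles for siNC, coloured by class. Chrna3 lies at 80.7 FPKM in siCircGigyf2 and 95.1 FPKM in siNC libraries, above all other genes, and most genes lie between 1 and 20 FPKM.

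Several genes of these families that many neurons express were below the minimum level. Of 19 GABA-A receptor rows 10 were listed at 0 and 8 were below 1 FPKM. Of the AMPA receptor genes Gria2 and Gria3 were members, while Gria1 averaged 0.0885 ± 0.0332 FPKM in siCircGigyf2 and 0.108 ± 0.00739 FPKM in siNC libraries. Chrnb4, the common partner of Chrna3 in ganglia, averaged 0.388 ± 0.0484 FPKM in siCircGigyf2 and 0.541 ± 0.195 FPKM in siNC libraries. Chrnb2, another beta partner, averaged 6.03 ± 0.1104 FPKM in siCircGigyf2 and 6.11 ± 0.497 FPKM in siNC libraries and did not pass the test. Kcnma1, the large-conductance calcium-activated potassium channel gene, and Cacna2d1 were listed at 0, which in such a table need not mean absence.

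Between the groups, 27 of the 71 genes passed the test, 19 higher and 8 lower in siCircGigyf2 libraries. The test was limma on log2(FPKM + 1) over all 11420 genes, with a Benjamini-Hochberg adjusted p under 0.05. This is 38% of the members, where 38.2% of all genes tested passed, a share near the background. Higher calls made up 26.8% of members and 19.5% of all genes, and lower calls 11.3% of members and 18.7% of all genes. The median log2 difference was 0.0033 over the members and 0.00035 over all genes tested. The groups did not overlap for 39 members (54.9%, against 51% of all genes), including all 27 that passed. Changes were small: among members that passed, the log2 differences ran from -0.41 to 0.36 with a median size of 0.26, against 0.25 for all genes that passed, and 0 members reached 1.5-fold on this log2(FPKM + 1) scale, which understates low genes. Of the 44 members that did not pass, 29 had a 95% interval that lay within 0.3 of 0 on the log2 scale.

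**Figure D2:**
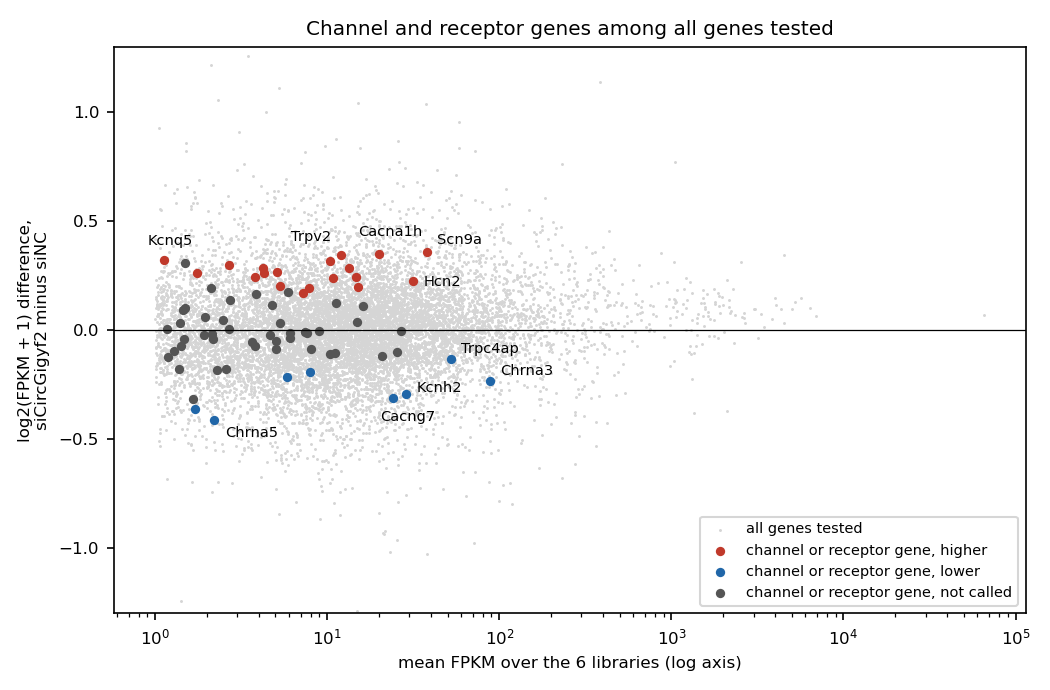
Log2(FPKM + 1) difference, siCircGigyf2 minus siNC, against mean FPKM (log axis) for all 11420 genes tested (light grey) and the 71 channel and receptor genes (red higher, blue lower, dark grey not called); 6 genes beyond 1.3 either way are not drawn. The channel and receptor genes lie within -0.41 to 0.36, inside the cloud of all genes.

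Calls are given here by subunit type, where 19.5% of all genes tested were higher and 18.7% lower. Of the 24 pore-forming subunits of voltage-gated potassium, calcium, sodium and HCN channels, 12 rose and 2 fell, with a median log2 difference of 0.16. The 12 include Kcnq5, which is in the set only through the siCircGigyf2 libraries, where it is high. Among the 19 auxiliary subunits and partners (Kcnab, Kcnip, Cacnb, Cacng, Cacna2d2, the sodium channel beta subunits, Trpc4ap, Grid2ip, Kcnrg and Kcnq1ot1), 0 rose and 2 fell, with a median of -0.034. This grouping was made after the values were seen, so it is a description, and the difference between the 2 subunit types was not tested. It does not cover all members. Inward rectifier, tandem-pore, calcium-activated potassium, TRP, P2X and transmitter receptor genes are in neither group, though most of them also form pores. Of the 16 ligand-gated and metabotropic receptor genes, Grid2ip included, 4 rose and 3 fell. Among the 19 auxiliary subunits and partners, 6 had an unadjusted limma p under 0.05, 3 with higher and 3 with lower values. Of all genes tested, 38.2% passed even the stricter adjusted threshold.

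**Figure D3:**
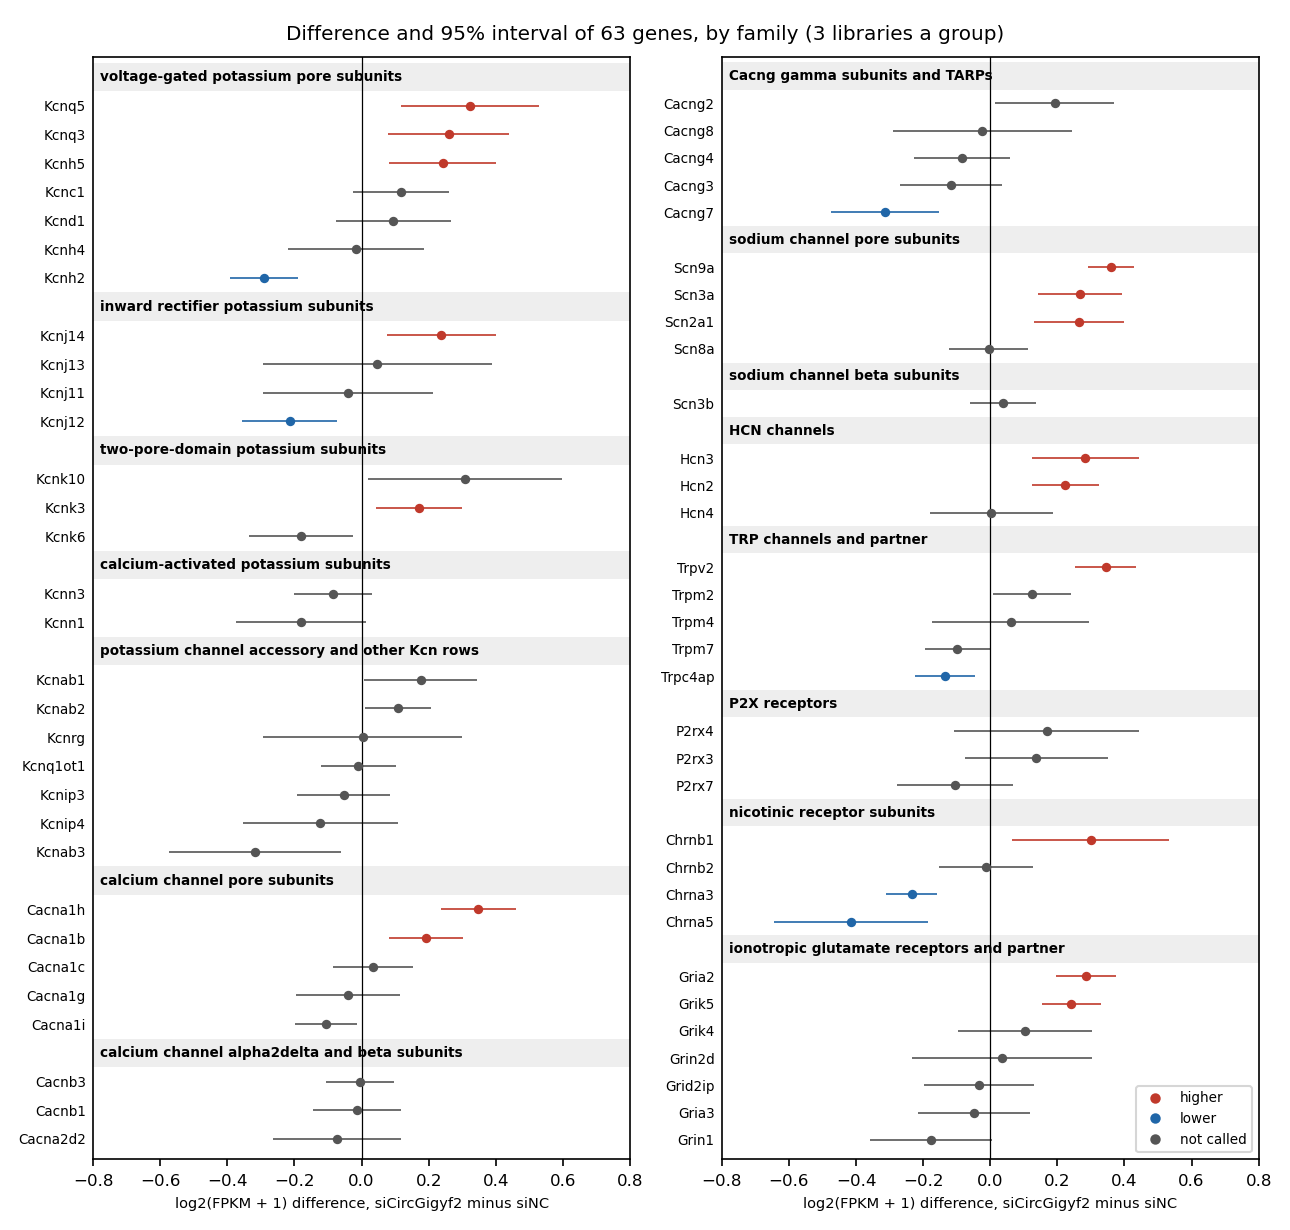
Log2(FPKM + 1) difference, siCircGigyf2 minus siNC, with its 95% interval from limma for 63 of the 71 genes, grouped by family (red higher, blue lower, dark grey not called; 3 libraries a group). Pore subunits of sodium and voltage-gated potassium channels lie mostly right of 0, whereas the auxiliary families lie around 0.

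Sodium channel pore subunits, which carry the upstroke of the action potential, included 3 rises and 1 fall among 5 members. This small count stands beside 19.5% higher and 18.7% lower among all genes tested. Scn9a had 42.8, 41.8 and 43.4 FPKM in siCircGigyf2 libraries, against 33.1, 33.2 and 32.9 FPKM in siNC libraries. All siCircGigyf2 libraries lay above all siNC libraries, and the spread within a group was small beside the gap. The log2 rise of 0.36, with an SE of 0.03 and a limma adjusted p of 5.75e-05, was the largest rise among the members on the log2(FPKM + 1) scale, though not with a pseudocount of 0.1, where Kcnq5 was at 0.56 and Scn9a at 0.37. Scn3a, a sodium channel gene typical of immature neurons, had 5.54, 5.79 and 5.63 FPKM in siCircGigyf2 and 4.39, 4.45 and 4.75 FPKM in siNC libraries, and its log2 rise was 0.27 (adjusted p = 0.00526). Scn2a1, which encodes a sodium channel of axon initial segments, had 4.94, 4.86 and 4.496 FPKM in siCircGigyf2 and 3.69, 3.84 and 3.86 FPKM in siNC libraries, and its log2 rise was 0.26 (adjusted p = 0.00778). Neither gene's groups overlapped. These 3 genes belong to the sodium channel cluster of chromosome 2, with 0 protein-coding genes between Scn3a and Scn2a1 and 4 between Scn2a1 and Scn9a in RefSeq's order of GRCm38.p6.

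Scn8a, a sodium channel gene of mature axons, averaged 8.99 ± 0.301 FPKM in siCircGigyf2 and 9.03 ± 0.467 FPKM in siNC libraries and did not pass, with a 95% interval of -0.12 to 0.11 for its log2 difference. Summed over the 5 genes, pore subunits gave 63.5 ± 0.855 FPKM in siCircGigyf2 libraries and 52.5 ± 0.458 FPKM in siNC libraries, of which Scn9a made up 67.3% ± 0.466 in siCircGigyf2 and 63.0% ± 0.320 in siNC libraries. The beta subunit gene Scn3b, whose product tunes gating and adhesion, averaged 15.03 ± 0.508 FPKM in siCircGigyf2 and 14.6 ± 0.495 FPKM in siNC libraries and did not pass.

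**Figure D4:**
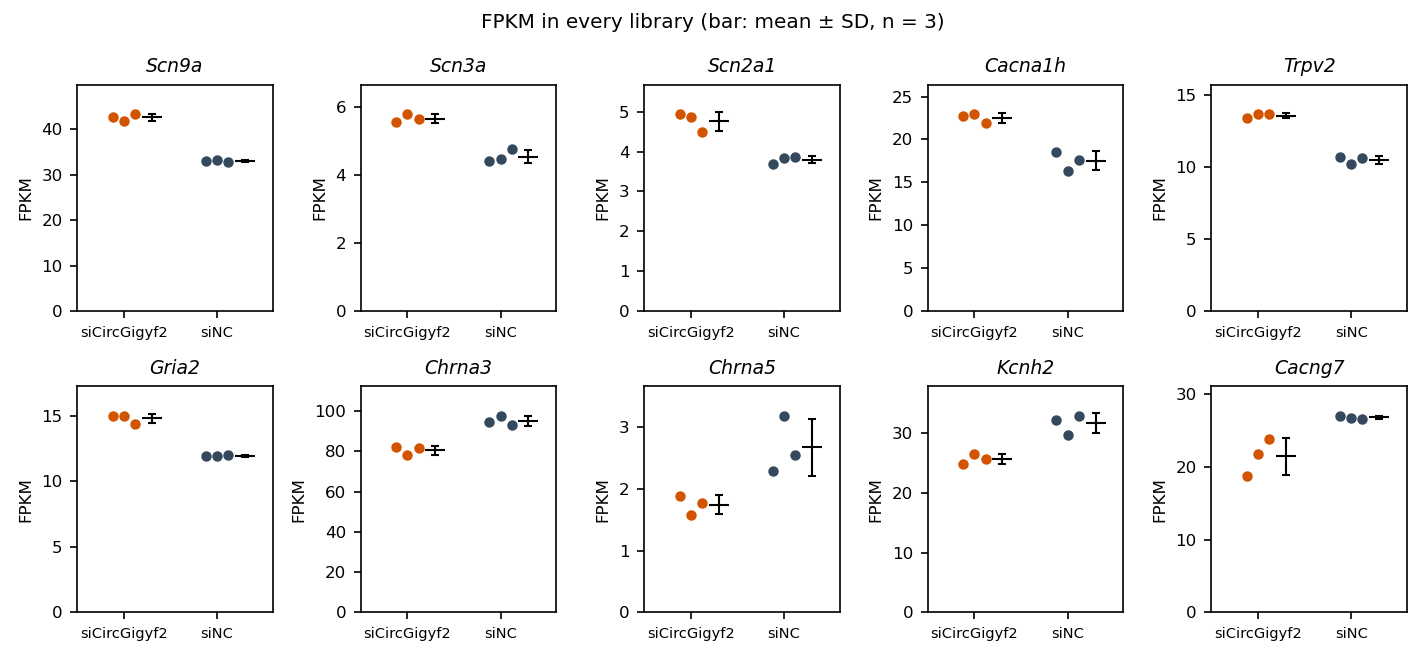
FPKM in each library for 10 genes, siCircGigyf2 left and siNC right, with the mean and SD of 3 libraries beside the points and axes from 0. Scn9a, Scn3a, Scn2a1, Cacna1h, Trpv2 and Gria2 are higher, and Chrna3, Chrna5, Kcnh2 and Cacng7 lower, in all siCircGigyf2 libraries than in any siNC library.

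Among voltage-gated potassium pore subunits, which repolarise the membrane, 5 of 10 members rose and 1 fell. Of all genes tested, 19.5% were higher and 18.7% lower. Kcnq3 and Kcnq5 encode subunits of the M-current, the muscarine-sensitive brake on repetitive firing. Kcnq3 averaged 1.99 ± 0.101 FPKM in siCircGigyf2 and 1.498 ± 0.133 FPKM in siNC libraries, with a log2 rise of 0.26 (limma adjusted p = 0.0301). Omitting any single library other than siCircGigyf2 replicate 2 ended the Kcnq3 call (adjusted p 0.0515 to 0.0934). Kcnq5 had 1.55, 1.23 and 1.33 FPKM in siCircGigyf2 and 0.971, 0.881 and 0.824 FPKM in siNC libraries, with a log2 difference of 0.32 (adjusted p = 0.0218). It is in the set only through the siCircGigyf2 libraries, where it is high, so its place among the 5 rises is a description and supports nothing. Its difference was 0.56 with a pseudocount of 0.1, and the call ended on omitting siCircGigyf2 replicate 1 or siNC replicate 2 or 3 (adjusted p 0.0548 to 0.0691). Kcnh5, of the EAG family, averaged 4.19 ± 0.353 FPKM in siCircGigyf2 and 3.39 ± 0.143 FPKM in siNC libraries, with a log2 rise of 0.24 (adjusted p = 0.0248). That call ended on omitting siCircGigyf2 replicate 1 or 3 or siNC replicate 1 or 3 (adjusted p 0.0712 to 0.0783), without a filter on low values (0.0574) and in the fit that blocks on replicate number (0.053).

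Kcnh2 went the other way. This gene of the ERG channel, best known for repolarising the heart, had 24.9, 26.4 and 25.6 FPKM in siCircGigyf2 libraries, against 32.2, 29.7 and 32.9 FPKM in siNC libraries. The groups were well apart, with a log2 fall of 0.29 (SE 0.045) at a limma adjusted p of 0.00114. The sum over the 10 subunit genes was 73.2 ± 0.401 FPKM in siCircGigyf2 libraries and 72.3 ± 1.14 FPKM in siNC libraries. Within it, the share of Kcnh2 was 35.05% ± 0.986 in siCircGigyf2 and 43.7% ± 1.98 in siNC libraries. Kcnc1, Kcnd1 and Kcnh4 did not pass.

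Of the resting potassium channels, Kcnj14, an inward rectifier gene, averaged 11.7 ± 0.666 FPKM in siCircGigyf2 and 9.83 ± 1.03 FPKM in siNC libraries, with a log2 rise of 0.24 (limma adjusted p = 0.0283). Kcnj12, which encodes a strong inward rectifier, averaged 5.35 ± 0.221 FPKM in siCircGigyf2 and 6.38 ± 0.461 FPKM in siNC libraries, with a log2 fall of 0.21 (adjusted p = 0.0252). Kcnk3, the acid-sensitive tandem-pore channel gene, averaged 7.75 ± 0.252 FPKM in siCircGigyf2 and 6.77 ± 0.431 FPKM in siNC libraries, with a log2 rise of 0.17 (adjusted p = 0.0409). All 3 calls were close to the threshold. The Kcnj14 call ended on omitting siCircGigyf2 replicate 1 or 3 or siNC replicate 1 or 2 (adjusted p 0.0718 to 0.0947), and that of Kcnj12 on omitting siCircGigyf2 replicate 2 or 3 or siNC replicate 1 or 2 (0.0539 to 0.0907). The Kcnk3 call ended on omitting any library other than siNC replicate 1 (0.0501 to 0.132) and in the blocked fit (0.0802). Without a filter on low values, adjusted p was 0.0744 for Kcnj14, 0.0589 for Kcnj12 and 0.0796 for Kcnk3. Kcnj11, Kcnj13, Kcnk6, Kcnk10 and the small-conductance calcium-activated genes Kcnn1 and Kcnn3 did not pass, nor did any of the 7 accessory and other Kcn rows.

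Among those accessory rows Kcnab3, a beta subunit gene, came closest to a call. It had 1.35, 1.32 and 1.39 FPKM in siCircGigyf2 and 2.26, 1.45 and 2.15 FPKM in siNC libraries, with groups that did not overlap (log2 difference -0.32, limma adjusted p = 0.053). Kcnab2, a more abundant beta subunit gene, averaged 16.9 ± 0.125 FPKM in siCircGigyf2 and 15.6 ± 0.779 FPKM in siNC libraries (log2 difference 0.11, adjusted p = 0.0778). Kcnip3, a calcium sensor that modulates A-type channels and also binds presenilins, averaged 3.58 ± 0.162 FPKM in siCircGigyf2 and 3.76 ± 0.103 FPKM in siNC libraries. Kcnq1ot1 averaged 7.35 ± 0.163 FPKM in siCircGigyf2 and 7.41 ± 0.286 FPKM in siNC libraries, and neither passed.

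Calcium channel pore genes included 2 rises among 5 members, where 19.5% of all genes tested were higher and 18.7% lower. Cacna1h had 22.7, 22.97 and 21.9 FPKM in siCircGigyf2 libraries, against 18.6, 16.3 and 17.6 FPKM in siNC libraries. The groups were clearly apart, with a log2 rise of 0.35 (SE 0.049) at a limma adjusted p of 0.000709. Cacna1b, the N-type channel of presynaptic terminals, had 8.46, 8.56 and 8.16 FPKM in siCircGigyf2 and 6.96, 7.301 and 7.400 FPKM in siNC libraries, with a log2 rise of 0.19 (adjusted p = 0.0127). The other T-type genes did not pass: Cacna1i had 10.2, 9.905 and 9.91 FPKM in siCircGigyf2 and 10.9, 10.9 and 10.7 FPKM in siNC libraries (log2 difference -0.11, adjusted p = 0.066), and Cacna1g averaged 2.12 ± 0.0587 FPKM in siCircGigyf2 and 2.21 ± 0.0653 FPKM in siNC libraries. Cacna1h made up 46.5% ± 0.359 of pore subunit FPKM in siCircGigyf2 libraries and 40.7% ± 1.47 in siNC libraries, and Cacna1i 20.6% ± 0.369 in siCircGigyf2 and 25.2% ± 0.718 in siNC libraries. Cacna1c, an L-type channel gene, averaged 5.399 ± 0.0759 FPKM in siCircGigyf2 and 5.25 ± 0.168 FPKM in siNC libraries. Cacnb3, the beta subunit gene of highest level, had 25.9, 28.2 and 25.8 FPKM in siCircGigyf2 and 27.3, 25.7 and 27.1 FPKM in siNC libraries, groups that overlapped. Its log2 difference of -0.0045 (adjusted p = 0.947) took a positive sign in 4 of the 6 fits that omit 1 library.

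The Cacng family holds gamma subunits and TARPs, which carry AMPA receptors to the surface and slow their closing. Cacng7 had 18.8, 21.7 and 23.8 FPKM in siCircGigyf2 libraries, against 27.05, 26.7 and 26.6 FPKM in siNC libraries. The siCircGigyf2 values were spread widely but all lay lower, and the log2 fall was 0.31 (SE 0.071) at a limma adjusted p of 0.00809. Without siCircGigyf2 replicate 1, the lowest library, the difference was -0.22 and passed (adjusted p = 0.00916). Cacng3 had 19.8, 19.04 and 21.1 FPKM in siCircGigyf2 and 20.1, 21.2 and 24.2 FPKM in siNC libraries, with overlapping groups, and did not pass (log2 difference -0.12, adjusted p = 0.196). Cacng8, the next coding gene to Cacng7 on chromosome 7, averaged 4.64 ± 0.963 FPKM in siCircGigyf2 and 4.68 ± 0.336 FPKM in siNC libraries. Cacng2, stargazin, averaged 2.32 ± 0.234 FPKM in siCircGigyf2 and 1.897 ± 0.0521 FPKM in siNC libraries and did not pass (adjusted p = 0.082).

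HCN and TRP channel genes, counted with the partner gene Trpc4ap, gave 3 rises and 1 fall among 9 members. The fall was that of Trpc4ap, which forms no channel. Of all genes tested, 19.5% were higher and 18.7% lower. Hcn2 had 32.8, 35.9 and 33.4 FPKM in siCircGigyf2 libraries, against 29.6, 27.7 and 29.6 FPKM in siNC libraries. The groups did not overlap, and the log2 rise was 0.22 (SE 0.044) at a limma adjusted p of 0.00407. Hcn3 averaged 4.72 ± 0.163 FPKM in siCircGigyf2 and 3.704 ± 0.342 FPKM in siNC libraries, with a log2 rise of 0.28 (adjusted p = 0.0118). Hcn4 averaged 2.68 ± 0.279 FPKM in siCircGigyf2 and 2.66 ± 0.188 FPKM in siNC libraries and did not pass. Hcn2 held 78.5% ± 1.08 of the HCN sum in siCircGigyf2 libraries and 77.8% ± 0.579 in siNC libraries.

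Trpv2, a cation channel gene of sensory neurons and immune cells, had 13.4, 13.7 and 13.7 FPKM in siCircGigyf2 libraries, against 10.7, 10.2 and 10.6 FPKM in siNC libraries. The groups were far apart, with a log2 rise of 0.34 (SE 0.041) at a limma adjusted p of 0.000281. Trpm7 had 25.9, 24.4 and 23.2 FPKM in siCircGigyf2 and 26.4, 26.3 and 26.2 FPKM in siNC libraries, all lower in siCircGigyf2 libraries, and did not pass (log2 difference -0.10, adjusted p = 0.0989). Trpm2, an oxidant-gated channel gene, averaged 11.8 ± 0.412 FPKM in siCircGigyf2 and 10.8 ± 0.584 FPKM in siNC libraries and did not pass either. Trpc4ap had 50.2, 51.4 and 48.04 FPKM in siCircGigyf2 and 54.9, 52.6 and 56.98 FPKM in siNC libraries, with a log2 fall of 0.13 (adjusted p = 0.026). This small fall was not called on omitting siCircGigyf2 replicate 1 or 3 or siNC replicate 1 or 3 (adjusted p 0.0536 to 0.0929), in the blocked fit (0.0579), without a filter on low values (0.0508) or without a variance trend (0.0591).

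Nicotinic receptor genes had 2 falls and 1 rise among 4 members, where 18.7% of all genes tested were lower and 19.5% higher. Chrna3, the most abundant member of all, had 82.1, 78.1 and 81.8 FPKM in siCircGigyf2 libraries, against 94.5, 97.9 and 92.9 FPKM in siNC libraries. The groups were far apart beside their spread, with a log2 fall of 0.23 (SE 0.033) at a limma adjusted p of 0.000721. Chrna5, an accessory alpha subunit, had 1.88, 1.58 and 1.78 FPKM in siCircGigyf2 and 2.28, 3.18 and 2.55 FPKM in siNC libraries, with groups that did not overlap. Its log2 fall of 0.41 (SE 0.1, adjusted p = 0.0113) was the largest fall among the members on the log2(FPKM + 1) scale, and the difference was -0.58 with a pseudocount of 0.1. Chrna5 and Chrna3 are next to each other on chromosome 9, with 0 coding genes between them. Chrnb1, a subunit of the muscle receptor, had 2.87, 2.92 and 3.41 FPKM in siCircGigyf2 and 1.96, 2.18 and 2.804 FPKM in siNC libraries, with a log2 rise of 0.30 (adjusted p = 0.0475). siNC replicate 3 lay close to the siCircGigyf2 values. The Chrnb1 call ended without a filter on low values (0.108), without a variance trend (0.0516), and on omitting any library other than siNC replicate 3 (adjusted p 0.0688 to 0.148).

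Promoters of both neighbouring nicotinic genes that fell are printed here beside those of Kcnh2, which fell, and Scn9a, which rose, chosen for their level or the size of their difference. Sequences are from RefSeq on GRCm38.p6 and run from 250 bases before to 50 after a gene's start. Capitals mark the GC box, GGGCGG or its reverse complement CCGCCC.
Chrna3 (GRCm38.p6, chr9:55026513-55026812, - strand): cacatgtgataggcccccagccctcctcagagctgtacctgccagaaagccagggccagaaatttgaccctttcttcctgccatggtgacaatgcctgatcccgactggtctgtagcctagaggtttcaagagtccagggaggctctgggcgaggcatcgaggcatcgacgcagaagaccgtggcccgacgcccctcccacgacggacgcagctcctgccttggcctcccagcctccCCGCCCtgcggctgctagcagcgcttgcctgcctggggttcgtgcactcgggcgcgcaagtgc
Chrna5 (GRCm38.p6, chr9:54981238-54981537, + strand): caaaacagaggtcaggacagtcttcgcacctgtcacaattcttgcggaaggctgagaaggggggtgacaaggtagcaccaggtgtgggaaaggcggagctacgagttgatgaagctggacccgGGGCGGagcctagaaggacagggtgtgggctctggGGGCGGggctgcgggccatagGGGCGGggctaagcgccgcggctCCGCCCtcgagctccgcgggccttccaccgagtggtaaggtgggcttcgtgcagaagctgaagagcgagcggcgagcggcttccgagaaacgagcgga
Kcnh2 (GRCm38.p6, chr5:24329542-24329841, - strand): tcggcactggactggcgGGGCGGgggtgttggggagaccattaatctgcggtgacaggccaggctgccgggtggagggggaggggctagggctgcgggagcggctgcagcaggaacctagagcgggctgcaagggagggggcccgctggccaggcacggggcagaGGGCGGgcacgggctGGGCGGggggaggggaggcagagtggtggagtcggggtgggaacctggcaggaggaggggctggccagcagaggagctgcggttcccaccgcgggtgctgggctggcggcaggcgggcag
Scn9a (GRCm38.p6, chr2:66634913-66635212, - strand): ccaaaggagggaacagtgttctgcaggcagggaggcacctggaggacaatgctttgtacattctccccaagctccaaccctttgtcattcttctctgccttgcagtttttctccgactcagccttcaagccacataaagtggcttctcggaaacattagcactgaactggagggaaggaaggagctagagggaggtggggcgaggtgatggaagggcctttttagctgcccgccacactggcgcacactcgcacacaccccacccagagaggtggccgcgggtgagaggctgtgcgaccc
The GC box occurred 1 time in the Chrna3 promoter, 4 times in the Chrna5 promoter shown, 3 times in that of Kcnh2 and 0 times in that of Scn9a. The other Chrna5 start in the table held 0. The table held 69 promoters for 48 of the 71 genes, and 33 of them (47.8%) had a GC box on either strand, against 35.7% of all 32851 promoters. All promoters are those of 27025 genes, many of them not tested here, so the 2 sets are unlike. Their median GC content was 52.7%, against 59.7% for the 69. The GC box was present in 5 of 14 promoters of genes that rose and 5 of 7 of genes that fell. The 14 promoters belong to 10 of the 19 genes that rose, and the 7 to 6 of the 8 that fell. Some genes thus count more than once. Shares for all tested genes that rose or fell were not counted, so this split is a description and was not tested. The cAMP response element TGACGTCA was in 0 of the 69, against 1.79% of all promoters. The core of the RE1 element, searched on both strands, was in 0 of the 69 and in 12 of all promoters. The GC box was the only one of these motifs in the 4 sequences shown. Promoters with a GC box among genes that rose, not shown, were those of Cacna1b, Chrnb1, Grik5, Hcn2 and Kcnh5.

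Ionotropic glutamate receptor genes and their partner held 2 rises among 7 members, where 19.5% of all genes tested were higher and 18.7% lower. Gria2, the AMPA receptor subunit whose edited form blocks calcium entry, had 14.98, 15.01 and 14.4 FPKM in siCircGigyf2 libraries, against 11.9, 11.9 and 12.03 FPKM in siNC libraries. The groups were far apart, and the log2 rise was 0.29 (SE 0.039) at a limma adjusted p of 0.000619. Grik5, a kainate receptor subunit, had 15.7, 16.5 and 16.1 FPKM in siCircGigyf2 and 13.8, 13.2 and 13.3 FPKM in siNC libraries, with a log2 rise of 0.24 (adjusted p = 0.00149). The NMDA receptor genes Grin1, the obligate subunit, and Grin2d did not pass, with Grin1 at 2.05, 2.55 and 2.51 FPKM in siCircGigyf2 and 2.71, 2.79 and 2.898 FPKM in siNC libraries (log2 difference -0.18, adjusted p = 0.115). Gria3, at 4.96 ± 0.344 FPKM in siCircGigyf2 and 5.17 ± 0.464 FPKM in siNC libraries, Grik4 and Grid2ip did not pass. The ATP-gated P2X genes P2rx3, P2rx4 and P2rx7 overlapped between the groups, at 17.75 ± 1.905 FPKM in siCircGigyf2 and 17.7 ± 1.35 FPKM in siNC libraries in sum.

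**Figure D5:**
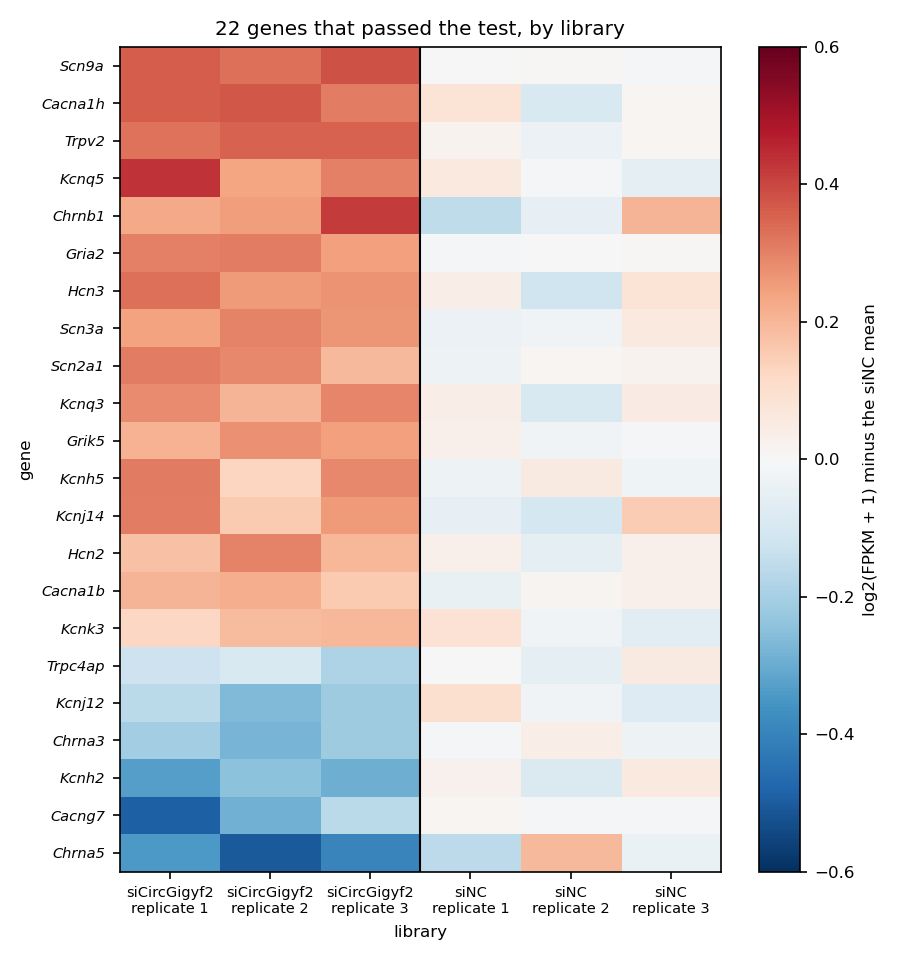
Log2(FPKM + 1) minus the siNC mean of the gene (colour) for 22 of the 27 genes that passed the test (rows, by difference) in each library (columns, siCircGigyf2 left). Each siCircGigyf2 library has the sign of its gene's call in every row, and the siNC libraries scatter around 0 most widely for Chrna5 and Chrnb1.

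A sequence that is frequent in the 3' UTRs of genes that fell in this comparison, GCCTACA, was looked up in the members because it was picked earlier from these same differences. It was found in 5 of 67 members with a 3' UTR to search (7.46%), against 6.55% of all 10692 genes searched, 4.27% of those that rose and 13.3% of those that fell. The 30 bases around 4 of these sites follow, from GENCODE M21 transcripts, with GCCTACA in capitals.
Cacng7 (GRCm38, chr7:3367395-3367424, + strand): gagcttgctctGCCTACAgggatatgacta
Chrnb1 (GRCm38, chr11:69784062-69784091, - strand): atataaatatcGCCTACAattgcacgtatt
Kcnab1 (GRCm38, chr3:65377286-65377315, + strand): tttctattaaaGCCTACAtttactttcaat
Trpm7 (GRCm38, chr2:126792788-126792817, - strand): cattggtttttGCCTACActtcacaaaagt
Of these 4 genes, Cacng7 fell, Chrnb1 rose, and Kcnab1 and Trpm7 did not pass. Chrnb1 alone held the 8 bases GCCTACAA. Chrna5, Chrna3 and Kcnh2, which fell, held no such site. These matches are letters in an annotated transcript and were not tested as sites.

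The members were long genes. Matched to GENCODE M21, 70 had a coding transcript, which spanned a median of 49.6 kb of genome, against 22.2 kb for all genes tested. The 19 that rose spanned a median of 92.9 kb, the 8 that fell 33.6 kb and the others 39.8 kb, and median 3' UTR lengths were 2434, 1002.5 and 1368 bases. Over all genes tested, those that rose spanned 25.5 kb, those that fell 23.7 kb and the others 20.9 kb. Exons of 24 members overlapped another annotated gene, on the same or the other strand. The handling of strand was not given in the sources used here, so reads of an antisense partner cannot be told apart. Called genes with an overlap were Cacna1h, Gria2, Hcn3, Kcnq5, Scn9a and Trpc4ap. Hcn3 shared 711 bases with Pklr on the other strand. Gria2 shared 29 bases with Gm25749 on the same strand, and the others shared 37 to 237 bases on the other strand.

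Genes that work with these channels were also both higher and lower. Of 27 tested genes of channel accessory and trafficking proteins, 8 rose and 4 fell (median log2 difference 0.055), where 38.2% of all genes tested passed. Saraf, a regulator of store-operated calcium entry, had 217, 205 and 193 FPKM in siCircGigyf2 libraries, against 148, 142 and 150.1 FPKM in siNC libraries. The groups were far apart, with a log2 rise of 0.48 at a limma adjusted p of 8.60e-05. Lrrc55, an auxiliary protein of calcium-activated potassium channels, averaged 1.79 ± 0.269 FPKM in siCircGigyf2 and 0.854 ± 0.106 FPKM in siNC libraries (log2 difference 0.58, or 0.98 with a pseudocount of 0.1). It reached the mean of 1 FPKM needed for testing only through the siCircGigyf2 libraries, so its difference is a description. Shisa4 rose by 0.36 and Stac2, which regulates calcium channels, by 0.30. Stac, of the same list, averaged 9.58 ± 0.995 FPKM in siCircGigyf2 and 11.8 ± 0.151 FPKM in siNC libraries. It fell by 0.28 (limma adjusted p = 0.00906).

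Of 33 receptor scaffold and synaptic adhesion genes, 12 rose and 4 fell (median log2 difference 0.051), where 19.5% of all genes tested were higher and 18.7% lower. Dlg3 and Dlg2 encode scaffolds of the postsynaptic density that hold NMDA receptors and potassium channels. Dlg3 averaged 24.1 ± 0.431 FPKM in siCircGigyf2 and 15.2 ± 0.616 FPKM in siNC libraries and Dlg2 22.4 ± 0.613 FPKM in siCircGigyf2 and 14.95 ± 1.11 FPKM in siNC libraries, with log2 rises of 0.63 and 0.55 (limma adjusted p = 1.98e-05 and 0.000109). The active zone gene Erc2 rose by 0.53 and Apba1, an adaptor that binds the amyloid precursor protein, by 0.48.

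Of 41 other ion channel genes, 13 rose and 6 fell (median log2 difference 0.0061), where 38.2% of all genes tested passed, 19.5% higher and 18.7% lower. Stim1, the calcium sensor of the endoplasmic reticulum that opens store-operated channels, had 20.9, 21.9 and 21.02 FPKM in siCircGigyf2 libraries, against 14.1, 12.9 and 13.4 FPKM in siNC libraries. The groups were far apart, with a log2 rise of 0.62 (SE 0.044) at a limma adjusted p of 2.90e-05. Tmem38b, a potassium channel gene of the same organelle, rose by 0.50, and the chloride transport genes Clcn6 and Clcn3 rose by 0.36 and 0.34. Of 11 metabotropic receptor genes outside the glutamate family, 2 rose and 2 fell (median 0.00038), beside the same shares of all genes tested. Gabbr1, of the GABA-B receptor, averaged 12.5 ± 0.436 FPKM in siCircGigyf2 and 8.799 ± 0.301 FPKM in siNC libraries (log2 rise 0.46, adjusted p = 0.000136) and Adra2b, an alpha2 adrenoceptor gene, rose by 0.39. Oprd1, of the delta opioid receptor, averaged 5.19 ± 0.0479 FPKM in siCircGigyf2 and 8.16 ± 0.434 FPKM in siNC libraries (log2 fall 0.57, adjusted p = 0.000101), and Adora2a, of an adenosine receptor, fell by 0.38. Apart from Stac, which was not followed in the other fits, the 16 genes named from these 4 lists passed in every other fit that tested them.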

How the data were processed

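Total RNA of 6 CAD cell samples was depleted of ribosomal RNA and sequenced as paired reads, per the labels' protocols. Groups came from the treatment labels, and table columns were matched to sample titles. No label says whether the replicates are separate cultures; the p-values therefore describe only variation among these libraries, possibly technical. The values are FPKM as deposited, on build mm9 per the submitters' processing notes. The sources used here do not name the aligner, quantifier, annotation or strand handling. FPKM are relative within a library and are not counts, so no count model was used.

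Genes with a mean of at least 1 FPKM were tested on log2(FPKM + 1), siCircGigyf2 minus siNC, with limma 3.58.1 in R 4.3.3 (moderated variances following a trend with the mean, Benjamini-Hochberg adjustment over all genes tested, two-sided, threshold 0.05). The test was checked on simulated data. An exact permutation test of 3 against 3 cannot go below p = 0.1. Shares and sums are of FPKM, with the SD over libraries. Identical values made up at most 0.00623% of rows between any 2 libraries. Members, lists and families were chosen with earlier results of these data known. Every member may be named, with values in every library for members past the threshold with an absolute log2 difference of at least 0.3 and for the 10 of highest mean; per-library values of other members were added after their values were seen. From each of the 4 lists of other genes, the 4 largest changes past the threshold are named, and Stac was added after its values were seen. Sequences and lengths came from GENCODE M21 and RefSeq, both on GRCm38, joined by symbol (Python 3.11.15, pandas 2.3.3). Of the 71 members, 8 are not reported by name here, nor drawn by name in a figure, but they stay in all counts, sums and tests.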

Additional observations from a re-analysis of the deposited data

How the results depend on the processing

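Other fits used a pseudocount of 0.1, a minimum of 5 FPKM or none, scaling by median of ratios or by quantiles, a replicate block, an untrended variance, robust empirical Bayes, or 1 library fewer. Of the 27 members that passed, 17 passed in each of these fits that tested them and 0 changed sign in any. Members called higher numbered 13 to 19, and members called lower 5 to 11. With 1 library omitted, 13 to 17 were higher and 5 to 8 lower, with the 5 found without siNC replicate 1, and the median log2 difference of the members was -0.0013 to 0.047. Cacnb3, at -0.0045 with all libraries, ranged from -0.044 to 0.016. The median of members was 0.0137 after quantile scaling and -0.0045 with a minimum of 5 FPKM, which left 37 members. Same-numbered libraries had correlations of 0.163, -0.0208 and 0.00253 between their deviations for numbers 1, 2 and 3, so the numbers were not taken to pair samples. With the replicate block, 17 members were higher and 7 lower, with a median of 0.0033. The depth of each library was not given, so no counting limit can be set for the members of lowest FPKM.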
